A study of Mus musculus with 8 samples.

Results

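Adiponectin and resistin are hormones that fat cells secrete. Their transcripts, Adipoq and Retn, were followed here through every probe set that the platform annotation gives one of these 2 gene symbols. There were 2 such probe sets, 1 per gene (u37222_s_at for Adipoq and AA286376_s_at for Retn), among 13069 probe sets and 6137 named genes on the 2 chips of the Affymetrix mouse set used. Both lie on chip A, which has 6529 probe sets besides its controls, and 0 of the 6540 on chip B carried either symbol. No probe set annotated to several genes included either of them. The genes were taken by name. The ending s_at marks, in Affymetrix naming, probes that related transcripts may share.

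The series compared white fat taken from beside the epididymis of male mice of 4 lines, DU6, DU6i, DUKs and DBA. RNA of 20 males aged 42 days was pooled per line, and every pool went onto 1 array of chip A and 1 of chip B. By general knowledge, which the labels do not spell out, DU6 mice were bred for high body weight, DU6i is inbred from DU6, DUKs is the unselected control of DU6 and DBA is an inbred strain. The labels name no treatment, and the title pairs DU6/DU6i with DUKs/DBA. With 1 pool per line there is no replicate, so a ratio between 2 lines has no test. Its size was read against the technical spread and against probe sets of similar brightness.

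Adiponectin is folded in the endoplasmic reticulum of the fat cell and leaves it as trimers and larger multimers, and its receptors Adipor1 and Adipor2 raise insulin sensitivity in liver and muscle. Its level in blood is lower in obesity. Resistin is a small cysteine-rich protein that in mice comes mainly from white fat cells and opposes insulin action in the liver, while in humans it comes mainly from macrophages. Both genes are switched on late in fat cell differentiation, and the nuclear receptor Pparg and the C/EBP factors act on them in cultured mouse fat cells.

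The stretches around the starts of both genes are shown because the transcripts had the same order over the lines. That order was also found in 74% of the 100 brightest chip A probe sets, so it is not particular to these genes. The windows run from 250 bases before to 50 bases after the RefSeq start on GRCm38.p6, with CCAAT boxes (CCAAT, or ATTGG where the box lies on the other strand) and E-boxes (CANNTG) in capitals. The Adipoq window is chr16:23146286-23146585 and the Retn window chr8:3655520-3655819, both on the plus strand.
Adipoq: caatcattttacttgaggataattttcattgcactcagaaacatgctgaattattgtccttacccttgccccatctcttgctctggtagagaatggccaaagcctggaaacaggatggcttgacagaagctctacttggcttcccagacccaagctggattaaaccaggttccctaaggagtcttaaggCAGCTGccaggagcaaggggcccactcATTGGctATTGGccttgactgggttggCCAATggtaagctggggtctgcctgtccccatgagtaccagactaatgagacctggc
Retn: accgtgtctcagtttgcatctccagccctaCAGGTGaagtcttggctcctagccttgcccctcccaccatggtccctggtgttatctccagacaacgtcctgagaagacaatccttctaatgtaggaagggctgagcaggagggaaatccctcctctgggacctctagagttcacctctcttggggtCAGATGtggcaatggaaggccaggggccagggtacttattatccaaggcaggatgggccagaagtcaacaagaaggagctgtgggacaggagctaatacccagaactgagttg
The Adipoq window holds 3 CCAAT boxes, which begin 34, 27 and 7 bases before the start, and 1 E-box 61 bases before it. The Retn window holds no CCAAT box and has 2 E-boxes, 220 and 63 bases before the start. Among 32851 windows of this length around mouse gene starts, 37.4% hold a CCAAT box and 72.3% an E-box on either strand. The letters of a nuclear receptor site (AGGTCA), a C/EBP site (TTGCNNAA), a TATA box (TATAAA), a GC box (GGGCGG) and a forkhead site (GTAAACA) are in neither window. These matches describe letters, and absence of a match says nothing of a factor.

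Adipoq was lowest in DU6 and highest in DU6i, the inbred line derived from it. Its chip A signal was 21044 in DU6, 48251 in DU6i, 36670 in DUKs and 28894 in DBA, in scaled intensity units. DUKs and DBA lay between the selected lines, so the sides of the series title overlapped. The highest signal was 2.29-fold the lowest.

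Retn gave the same order of lines with a wider range. Its signal was 13502 in DU6, 42936 in DU6i, 28046 in DUKs and 21591 in DBA. Here too the DU6 and DU6i pools were the extremes, 3.18-fold apart, with both DUKs and DBA between them. In both genes the line order was DU6i, DUKs, DBA and DU6 from high to low. In a pool of whole tissue, fewer fat cells and less of the transcript per fat cell cannot be told apart.

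**Figure D1:**
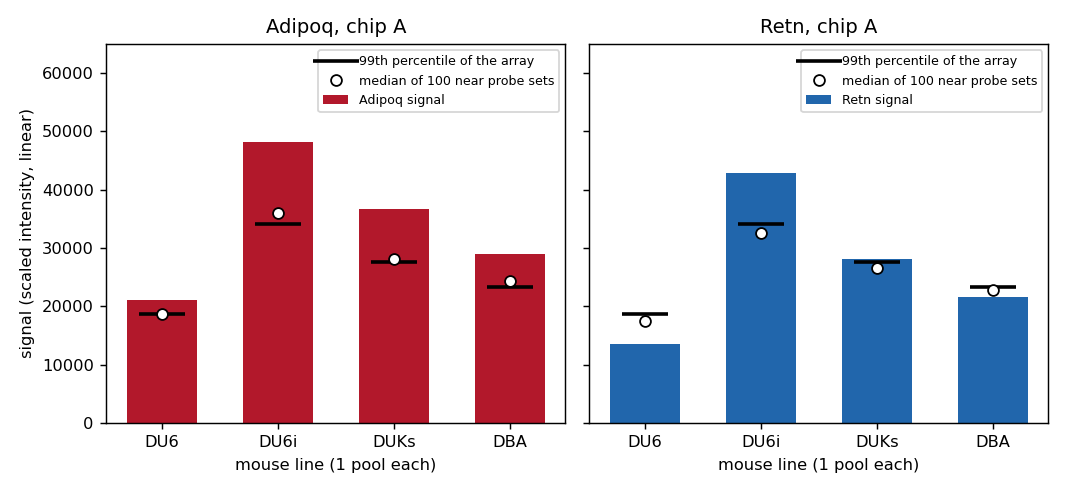
Chip A signals of Adipoq (left) and Retn (right) in the 4 pools, as bars on a linear intensity axis that starts at 0. Black dashes mark the 99th percentile of each array and open circles the median of the 100 probe sets nearest in brightness. Bars, dashes and circles are all lowest in DU6 and highest in DU6i, and the Retn bar for DU6 (13502) lies below both marks.

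In DU6 against DUKs, the selected line against its unselected control, both transcripts were lower in DU6. The log2 ratio was −0.80 for Adipoq, a 1.74-fold difference, and −1.05 for Retn, a 2.08-fold difference. A probe set counts as called here when its signals differ 2-fold or more, which is a size and no test. By it Retn was called lower in DU6 and Adipoq was not. Over all probe sets, 6.3% of 5604 were at least 2-fold lower in DU6 in this pair. The technical SD of a log2 ratio, estimated from genes that 2 detected probe sets measure, was 0.44 here (346 genes). The Adipoq ratio was 1.82 and the Retn ratio 2.39 of these SDs from 0.

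In DU6i against DBA both transcripts were higher in DU6i, the opposite direction. The log2 ratio was 0.74 for Adipoq (1.67-fold) and 0.99 for Retn (1.99-fold), so that neither was called and Retn lay just under the limit. Of 5556 probe sets in this pair, 4.79% were called higher in DU6i. With a technical SD of 0.34 (348 genes), Adipoq was 2.16 and Retn 2.90 SDs from 0. The difference between the ratios of these pairs rests on 4 pools and was not tested.

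The largest differences of both transcripts lay between DU6 and DU6i, within the selected side of the title. The log2 ratio of DU6 over DU6i was −1.20 for Adipoq (2.29-fold) and −1.67 for Retn (3.18-fold). Both were called lower in DU6, where 5.7% of 5478 probe sets were called in that direction. With a technical SD of 0.46 (339 genes), these ratios were 2.62 and 3.65 SDs from 0.

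The other 3 pairs gave smaller differences, and neither gene was called in any of them. In DUKs against DBA the log2 ratio was 0.34 for Adipoq and 0.38 for Retn, both under 1 technical SD of 0.41, so the middle neighbours in the order did not differ beyond that spread; 6.01% of 5691 probe sets were called higher in DUKs. In DU6 against DBA it was −0.46 for Adipoq and −0.68 for Retn, or 1.28 and 1.90 SDs, and 4.17% of 5491 probe sets were called lower in DU6. In DU6i against DUKs it was 0.40 for Adipoq, equal to 1 SD at the precision given (0.40), and 0.61 for Retn, or 1.55 SDs, and 3.39% of 5579 probe sets were called higher in DU6i. All 6 pairs come from the same 4 arrays, so their ratios are not independent.

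The Retn ratio lay farther from 0 than the Adipoq ratio in each of the 6 pairs. The distance was widest in DU6 against DU6i, where the Retn ratio minus the Adipoq ratio was −0.47. It was −0.25 in DU6 against DUKs and 0.25 in DU6i against DBA. The technical SD of such a difference was 0.65, 0.62 and 0.48 in these 3 pairs, so the genes did not differ from each other beyond the technical spread.

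DU6 and DU6i together did not differ from DUKs and DBA in either transcript beyond the spread between lines. In the limma fit of 2 lines against 2, the log2 difference was −0.03 for Adipoq (SE 0.44) and −0.03 for Retn (SE 0.56), with an adjusted p of 0.9998 for both. The share of probe sets past an adjusted p of 0.05 was 0% of 5267, while 252 had an unadjusted p below 0.05; the smallest adjusted p was 0.829. By exact permutation, 2 lines a side allow no p below 1 in 3. The difference turned on single lines: for Adipoq it was 0.57 without DU6 and −0.63 without DU6i, and for Retn 0.80 without DU6 and −0.87 without DU6i.

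Both probe sets are among the brightest of chip A. Adipoq ranked 25th from the top in DU6, 7th in DU6i, 7th in DUKs and 13th in DBA. Retn ranked 277th in DU6, 25th in DU6i, 57th in DUKs and 92nd in DBA. The maximum of the array was 27243 in DU6, 56404 in DU6i, 41150 in DUKs and 32657 in DBA. Whether the brightest probe sets were saturated on an array was not tested, so the folds of both genes hold only as far as bright signals stay proportional to the transcript. The ranks describe the brightness of a probe set on its array, not the amount of one transcript against another.

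The bright end of chip A had the same order of lines as the 2 genes. The 99th percentile of the array was 18704 in DU6, 34165 in DU6i, 27513 in DUKs and 23379 in DBA, while the median signals were close, at 1022 in DU6, 867 in DU6i, 1078 in DUKs and 990 in DBA. Divided by that percentile, the Adipoq signal was 1.13 in DU6, 1.41 in DU6i, 1.33 in DUKs and 1.24 in DBA, and the Retn signal was 0.722 in DU6, 1.26 in DU6i, 1.02 in DUKs and 0.924 in DBA. On this relative scale both genes still had DU6 lowest and DU6i highest, over a narrower range.

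Each gene was then set beside the 100 probe sets of chip A nearest to it in mean log2 signal. The order DU6i, DUKs, DBA, DU6 was shared by 73 of the 100 near Adipoq and by 72 of the 100 near Retn. DU6i was the highest line in 82 and 83 of them, and DU6 the lowest in 89 and 88. The groups overlap, with 81 probe sets in both. Of the 70 named probe sets near each gene, 5 near Adipoq and 3 near Retn were on the mature fat cell list, and 10 in each group carried a ribosomal protein symbol. That list does not hold every gene of the fat cell: Retn, itself among the probe sets near Adipoq, is not on it. How much of these groups comes from fat cells was not tested.

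The ratios of Adipoq lay within those of the 100 probe sets nearest to it in brightness, of which only 5 were brighter than Adipoq. For DU6 over DUKs the near median was −0.67, against −0.80 for Adipoq, and 29 of the 100 had a ratio as far from 0 in that direction or farther. In DU6i against DBA the near median was 0.66, against 0.74 for Adipoq, and 38 lay as far or farther. In DU6 against DU6i the near median was −0.98, against −1.20 for Adipoq, with 31 as far or farther, and 48 of the 100 were themselves called lower in DU6. In the other pairs the numbers were 28 in DUKs against DBA, 37 in DU6 against DBA and 47 in DU6i against DUKs. Adipoq thus differed from the median of these 100 by at most 0.22 in log2 over the 6 pairs. The distance depended on the size of the group. In DU6 against DU6i, Adipoq minus the near median was −0.095 with 50 near probe sets and −0.41 with 200.

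Retn lay at the edge of its group. For DU6 over DUKs its ratio was 0.47 below the near median of −0.59, and 5 of the 100 lay as far from 0 or farther. In DU6i against DBA it was 0.37 above the near median of 0.62, again with 5 as far or farther. In DU6 against DU6i it was 0.74 below the near median of −0.93, with 4 as far or farther. These 3 distances from the near median were each larger than 1 technical SD of their pair. The probe sets at or beyond Retn in all 3 of these pairs were those of Gnas, which codes for the stimulatory G protein alpha subunit, and Igfbp7, a secreted protein that binds insulin-like growth factors. Gnas also has a chip B probe set. Its log2 ratios there were −0.13 in DU6 against DUKs, 0.42 in DU6i against DBA and 1.04 in DU6 against DU6i. In the other pairs the numbers at or beyond Retn were 20 in DUKs against DBA, 7 in DU6 against DBA and 12 in DU6i against DUKs. By line, the distance of Retn from its near median was −0.37 in DU6, 0.40 in DU6i, 0.08 in DUKs and −0.07 in DBA, in log2 signal.

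**Figure D2:**
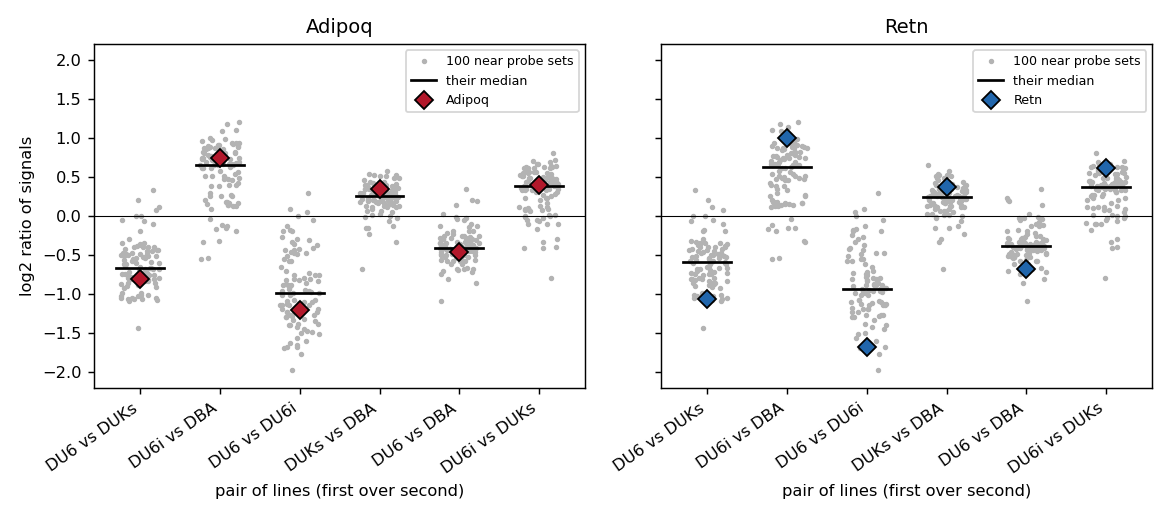
Log2 ratios of Adipoq (left) and Retn (right), as diamonds, in the 6 pairs of lines, beside those of the 100 chip A probe sets nearest in brightness (grey points) and their median (black line). Adipoq lies near the black line in every pair, while in DU6 against DU6i Retn (−1.67) lies near the lower end of the grey points.

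The shared order was most frequent among the brightest probe sets. It was found in 74% of chip A ranks 1 to 100 by mean log2 signal, 39% of ranks 101 to 200, 12.5% of ranks 201 to 400, 2.5% of ranks 401 to 800, 2.25% of ranks 801 to 1600 and 1.42% of ranks 1601 to 2656. The median log2 ratio of DU6 over DU6i was −0.99 in the brightest of these groups and 0.21 in the dimmest. Adipoq, 6th by mean log2 signal, and Retn, 63rd, fall in the brightest group.

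**Figure D3:**
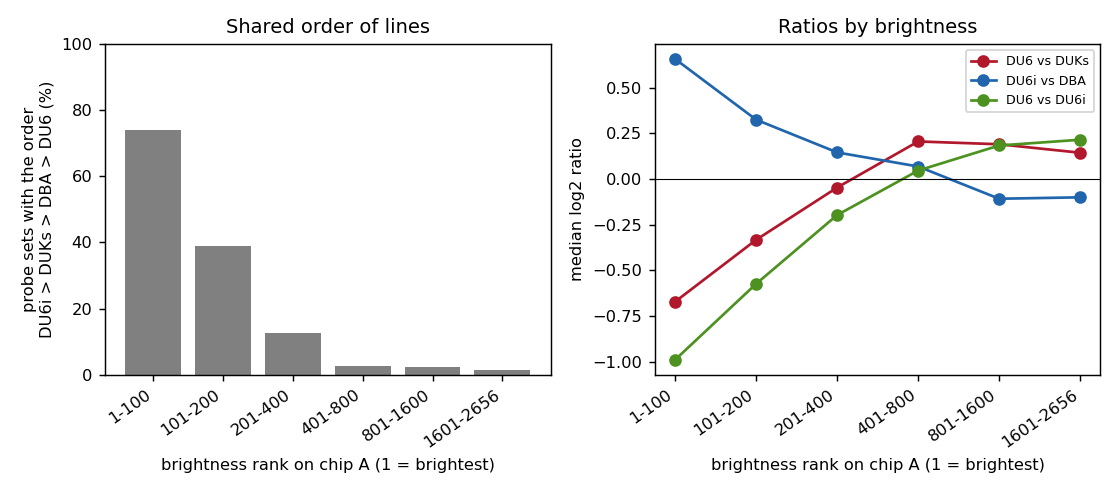
Chip A probe sets above the floor on all 4 arrays, grouped by rank of mean log2 signal. The left panel gives the percentage with the line order of Adipoq and Retn, which is 74% in ranks 1 to 100 and 1.42% in ranks 1601 to 2656; the right panel gives the median log2 ratio of 3 pairs, which changes sign in each between the bright and the dim end.

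Bright genes that also have a probe set on chip B could be followed on another array of the same pools. Of the 200 brightest chip A probe sets, 34 pairs of probe sets for 29 genes were above the floor on all 4 arrays of chip B. Their median log2 ratio of DU6 over DU6i was −1.02 on chip A and 0.44 on chip B, and the sign was shared in 6 of the 34. In DU6 against DUKs the medians were −0.61 on chip A and −0.09 on chip B, with the sign shared in 22. In DU6i against DBA they were 0.73 on chip A and 0.14 on chip B, with the sign shared in 28. The direction seen for Adipoq and Retn in DU6i against DBA was kept by most such genes, at a smaller size, and that in DU6 against DU6i was kept by few. In 29 of the 34 pairs the chip A name ends in f_at, which in Affymetrix naming marks probes shared within a gene family.

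For most bright probe sets that both chips carry, the DU6 over DU6i ratio had opposite signs on chip A and chip B. The Gapdh 3′ control had 17218 in DU6, 35723 in DU6i, 29329 in DUKs and 23916 in DBA on chip A, and 57839 in DU6, 38577 in DU6i, 47886 in DUKs and 31430 in DBA on chip B. On chip B its DU6 signal was the highest of the 4, while on chip A it was the lowest. Over the 6 probe sets placed on both chips, bright on chip A and above the floor on chip B, the median DU6 over DU6i ratio was −0.87 on chip A and 0.37 on chip B. They include the 3′, middle and 5′ probe sets of Gapdh, so they are not 6 separate transcripts. The sign was shared in 1 of the 6, the Gapdh 5′ control, which had 40095 in DU6 and 42779 in DU6i on chip B. The 99th percentile of chip B was 48964 in DU6, 34486 in DU6i, 51798 in DUKs and 33463 in DBA, another order than on chip A. Adipoq and Retn have no chip B probe set, so the part of the array in their line differences was not tested.

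**Figure D4:**
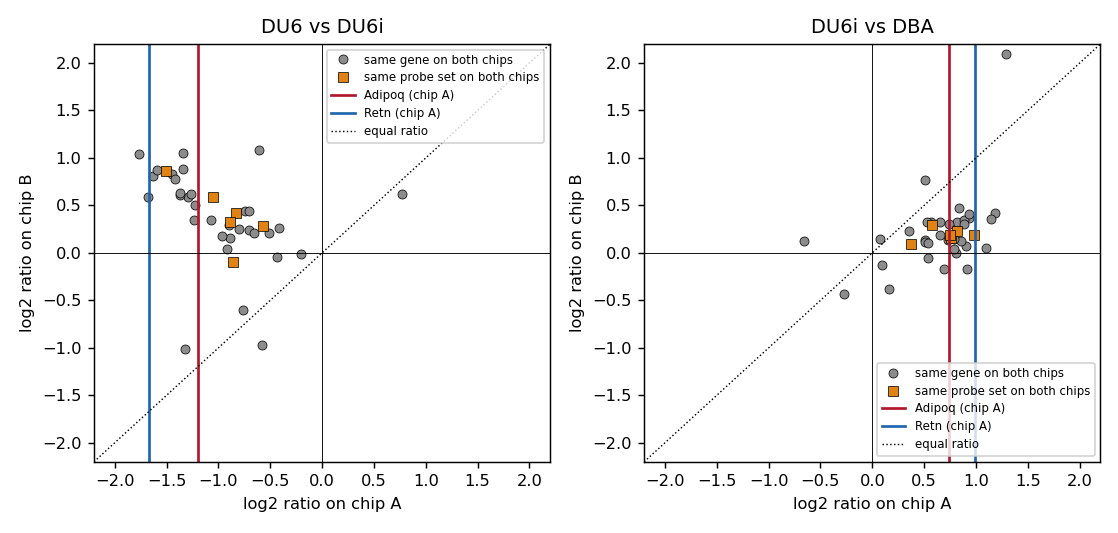
Log2 ratios on chip A (horizontal) and chip B (vertical), for DU6 over DU6i (left) and DU6i over DBA (right). The probe sets are bright on chip A and above the floor on every chip B array. Circles are 34 probe set pairs of 29 genes, squares 6 probe sets placed on both chips, and vertical lines the chip A ratios of Adipoq and Retn. In the left panel most points have a negative chip A ratio and a positive chip B ratio (medians −1.02 and 0.44).

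When the 4 arrays of a chip were given one distribution by quantile normalisation, little was left of the Adipoq differences and part of the Retn differences stayed. Adipoq then had 30861 in DU6, 34786 in DU6i, 34786 in DUKs and 33250 in DBA, with DU6i and DUKs tied. Its ratio was −0.17 in DU6 against DUKs, 0.065 in DU6i against DBA and −0.17 in DU6 against DU6i. Retn had 14865 in DU6, 30861 in DU6i, 26659 in DUKs and 23588 in DBA after the same step, in the same order as before. Its ratio was −0.84 in DU6 against DUKs and 0.39 in DU6i against DBA. In DU6 against DU6i it was −1.05, 1.02 below its near median, with 4 of 100 near probe sets as far or farther. After this step a value depends only on the rank of the signal on its array. Adipoq ranked between 7th and 25th on the arrays and Retn between 25th and 277th. The small Adipoq differences that were left therefore follow from its ranks near the top. Quantile normalisation assumes that the pools share one distribution, which these data do not settle.

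The pools also differed in controls along mRNAs, on chip A in a different order of lines for each control. The pyruvate carboxylase probe set at the middle of the mRNA had 15.3% of the 3′ signal in DU6, 54.5% in DU6i, 53.9% in DUKs and 19.5% in DBA on chip A, so that it was low in DU6 and DBA, the lines with the lower Adipoq and Retn signals. The 5′ signal of Gapdh was 111% of its 3′ signal in DU6, 97.0% in DU6i, 84.7% in DUKs and 82.1% in DBA, highest in DU6. That of actin was 47.2% in DU6, 40.6% in DU6i, 58.0% in DUKs and 43.0% in DBA, lowest in DU6i. On chip A only the first of these 3 controls separated the lines as Adipoq and Retn did. On chip B DU6 was the lowest line in each, with 12.7% for pyruvate carboxylase, 69.3% for Gapdh and 36.3% for actin. There DBA was next lowest for pyruvate carboxylase (14.3%) and actin (52.7%) but highest for Gapdh (116%). The part of RNA length in the results was not tested.

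Among regulators of both genes, Pparg, the nuclear receptor that drives fat cell differentiation, had 3935 in DU6, 6564 in DU6i, 4914 in DUKs and 3489 in DBA. Cebpa, which keeps the mature fat cell state, had 5948 in DU6, 7988 in DU6i, 9751 in DUKs and 3735 in DBA, on chip B. Both were lower in DU6 than in DUKs (log2 ratio −0.32 for Pparg and −0.71 for Cebpa) and higher in DU6i than in DBA (0.91 and 1.10), the directions of Adipoq and Retn, but in both DBA and not DU6 was the lowest line. Cebpb, a factor that acts early in differentiation, had 7288 in DU6, 6266 in DU6i and 4314 in DBA and was below the floor in DUKs, so it was at least 3.23-fold higher in DU6 than in DUKs. Of the 21 transcription factors listed, 13 were on the chips and 6 were measured in DU6 against DUKs, with 1 called higher and 0 lower and a median of 0.65. In DU6i against DBA 5 were measured, with 1 called higher and 0 lower and a median of 0.70. Of all named genes 141 of 3512 were called higher in DU6 against DUKs and 127 of 3455 in DU6i against DBA, and their medians were 0.10 and −0.08.

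The list of genes that fold and release adiponectin held no called gene in the main pairs. Of 15 listed genes 10 were on the chips, and 0 were called in DU6 against DUKs (10 measured, median 0.28) or in DU6i against DBA (9 measured, median −0.27). Of all named genes, 141 of 3512 were called higher and 186 lower in DU6 against DUKs. In DU6i against DBA 127 of 3455 were called higher and 256 lower. At these shares a list this short can hold 0 called genes. Erp44, which holds adiponectin back in the early secretory pathway by a thiol bond, had 4635 in DU6, 3671 in DU6i, 3601 in DUKs and 5069 in DBA, with DUKs lowest. The medians of this list had the opposite sign to the Adipoq ratio in both pairs, but so had those of all named genes (0.10 and −0.08). Chip A ranks 801 to 1600 also had such medians, 0.19 in DU6 against DUKs and −0.11 in DU6i against DBA. The signs are thus not particular to this list.

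On the receptor side, Adipor2 had 13766 in DU6, 18388 in DU6i, 16485 in DUKs and 13862 in DBA, the same line order as Adipoq over a 1.34-fold range. The receptor and signalling list had 5 of 16 genes on the chips, of which 4 were measured in each main pair and 0 were called, with a median of 0.21 in DU6 against DUKs and −0.38 in DU6i against DBA. Cpt1a, the gate of fatty acid entry into mitochondria and a gene downstream of adiponectin signalling, had 9469 in DU6, 7019 in DU6i, 5880 in DUKs and 10535 in DBA. For resistin, 4 of 9 family and proposed receptor genes were on the chips and 0 were called in either main pair. Of all named genes, 141 of 3512 were called higher and 186 lower in DU6 against DUKs. In DU6i against DBA 127 of 3455 were called higher and 256 lower, so lists this short can hold 0 called genes. Cap1, a proposed receptor of human resistin, was above the floor in DUKs only (2346). Adipor1, Cdh13, Cfd and Retnla had no probe set named for them alone and are not analysed here.

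Leptin, the fat cell hormone that reports fat stores to the brain, differed from both genes in its order. Lep had 12446 in DU6, 27777 in DU6i, 8696 in DUKs and 3837 in DBA. It was 1.43-fold higher in DU6 than in DUKs, where Adipoq and Retn were lower, and 7.24-fold higher in DU6i than in DBA. Lep is also on chip A, and its signals in both selected lines lay above those in DUKs and DBA. It was dimmer than both genes in every line. It lies in neither group of 100 near probe sets, most of which shared the order of Adipoq and Retn.

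Of 25 listed adipokines other than Adipoq and Retn, 15 were on the chips. Of these 13 were measured in DU6 against DUKs with a median of 0.09, 0 were called higher and 1, Saa3, an acute phase protein, was called lower in DU6 (6684 in DU6, against 16602 in DUKs). Of all named genes 141 of 3512 were called higher and 186 lower in this pair. In DU6i against DBA 12 were measured with a median of 0.54, and of all named genes 127 of 3455 were called higher and 256 lower. Lep, the acute phase protein Orm1 (11833 in DU6i, against 4443 in DBA) and the angiogenic factor Vegfa (at least 2.10-fold, below the floor in DBA) were called higher in DU6i. Lcn2, an iron carrier that the male tract also makes, was called lower in DU6i (6788 in DU6i, against 36012 in DBA).

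Many mature fat cell genes on chip A, though not all, had ratios in the directions of Adipoq and Retn, and those on chip B had smaller ones, with the opposite sign for DU6 over DU6i. Of 31 listed genes 21 were on the chips. All 21 were measured in DU6 against DUKs, where 2 were called higher and 3 lower in DU6, with a median of −0.31. Of all named genes 141 of 3512 were called higher and 186 lower there. In DU6i against DBA 20 were measured, 2 were called higher and 1 lower in DU6i, with a median of 0.64. Of all named genes 127 of 3455 were called higher and 256 lower there. After quantile normalisation the median of the list was 0.01 in DU6 against DUKs (11 genes higher in DU6 and 10 lower) and 0.36 in DU6i against DBA. The 11 genes above the floor throughout on chip A had a median of −0.68 in DU6 against DUKs, 0.90 in DU6i against DBA and −1.18 in DU6 against DU6i, and 7 of the 11 had the line order of Adipoq. Of these 11, Lep (log2 ratio 0.52) and Dgat1 (0.32), an enzyme of triglyceride synthesis, were higher in DU6 than in DUKs. Adig, a membrane protein of fat cells on chip A, is not among the 11 because it was below the floor in DUKs; it was at least 8.49-fold higher in DU6 than in DUKs and 2.32-fold lower in DU6i than in DBA, opposite to both genes. The 8 such genes on chip B had medians of −0.08, 0.29 and 0.42 in these pairs, and 0 of the 8 had that order. Fabp4, the fatty acid carrier of the fat cell and a chip A gene, had 21433 in DU6, 48638 in DU6i, 34237 in DUKs and 27836 in DBA. Fasn, the fatty acid synthase, measured on chip B, had 61926 in DU6, 40390 in DU6i, 63666 in DUKs and 37212 in DBA.

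**Figure D5:**
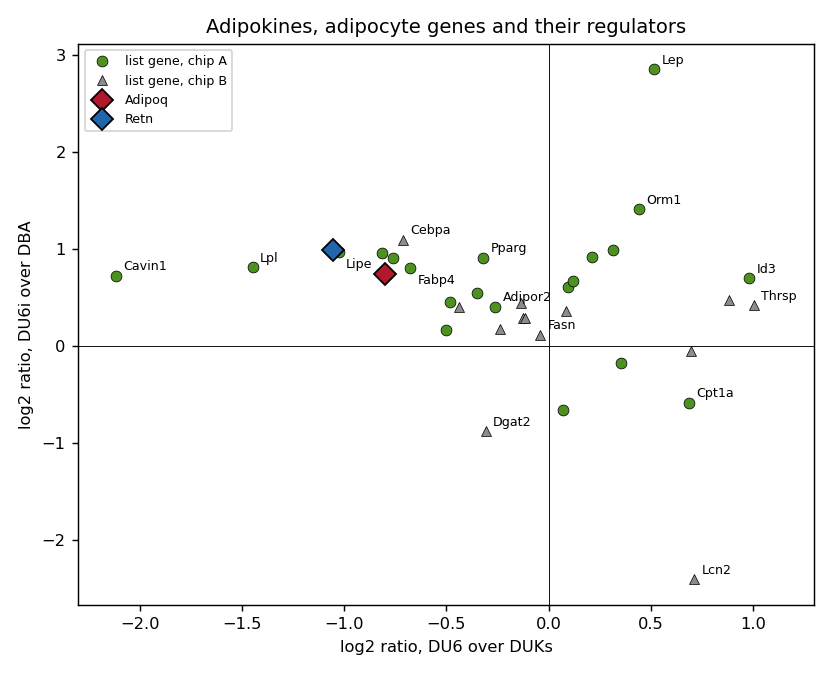
Log2 ratios of 34 genes on the lists of adipokines, fat cell markers, transcription factors and adiponectin signalling, all above the floor on the 4 arrays of their chip, in DU6 over DUKs (horizontal) and DU6i over DBA (vertical); circles are chip A, triangles chip B and diamonds Adipoq and Retn. Adipoq and Retn lie in the upper left, as do 11 of 21 chip A and 7 of 13 chip B genes, and Lep lies in the upper right.

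Genes whose patterns over the lines were most like those of Adipoq and Retn came from the same bright end. The measure was the largest difference, over the 4 lines, between log2 signals centred on their own mean, and 2603 named genes on both chips were compared. For Adipoq the nearest were Cox6a1, a subunit of cytochrome c oxidase (0.05), Lyz2, the lysozyme of macrophages (0.05), Rps15, a ribosomal protein (0.06), Wdr92 (0.06) and Fabp4 (0.07). For Retn they were Lipe, the hormone-sensitive lipase (0.01), Igfbp7 (0.08), Atp5b, a subunit of ATP synthase (0.10), the citrate carrier Slc25a1 (0.11) and Serf2 (0.12). Between Adipoq and Retn the measure was 0.24. All 10 lie on chip A at brightness ranks between 2 and 97. After quantile normalisation, 0 of the 5 stayed nearest to Adipoq, and 2 of the 5, Lipe and Igfbp7, stayed nearest to Retn.

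Lipe traced Retn most closely. Its signal was 14763 in DU6, 46226 in DU6i, 30054 in DUKs and 23530 in DBA, so that its log2 ratio of DU6 over DU6i was −1.65, against −1.67 for Retn. The likeness rests on 4 values per gene and says nothing of shared control.

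Markers of other tissues also differed between the pools. The summed signal of 16 testis and germ cell markers was 66840 in DU6, 53555 in DU6i, 292736 in DUKs and 125704 in DBA, and that of 12 epididymis and male tract markers was 135849 in DU6, 22958 in DU6i, 142745 in DUKs and 213116 in DBA. All 28 were above the floor on at least 1 array; the brightest of each list were Tnp1, a spermatid nuclear protein (14689 in DU6, 10822 in DU6i, 47073 in DUKs and 20147 in DBA), and Lcn2. Gpx5, an enzyme of the epididymis, was below the floor in DU6i. Germ cell markers were called lower in 14 of 16 measured in DU6 against DUKs (median −1.84) and in 7 of 13 in DU6i against DBA (median −1.003), while of all named genes 186 of 3512 and 256 of 3455 were called lower in these pairs. Male tract markers were called lower in 2 of 7 in DU6 against DUKs (median −0.08, and 0.30 after quantile normalisation) and in 9 of 10 in DU6i against DBA (median −2.18). The summed signal of 13 macrophage markers was 127903 in DU6, 131203 in DU6i, 97400 in DUKs and 77058 in DBA, with medians of 0.59 in DU6 against DUKs and 0.96 in DU6i against DBA. DU6i, the highest line for Adipoq and Retn, had the lowest germ cell and male tract sums, while DUKs, with the highest germ cell sum, was the second highest line for both genes. The part of these tissues in the ratios was not tested.

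For the remaining lists, C1q/TNF-related proteins, the structural relatives of adiponectin, had a median log2 ratio of 0.35 in DU6 against DUKs (4 genes measured) and 0.44 in DU6i against DBA (3 genes). Insulin signalling genes had 0.27 in DU6 against DUKs (5 genes) and 0.04 in DU6i against DBA (6 genes), and 0 genes of either list were called. Preadipocyte and stromal markers had 0.34 in DU6 against DUKs (10 genes) and 0.24 in DU6i against DBA (11 genes), and endothelial markers had 0.44 and 0.51 in these pairs (8 genes each). Mesothelial and epithelial markers had 0.57 in DU6 against DUKs, with 0 called, and −1.52 in DU6i against DBA, with 5 called lower in DU6i (9 genes each). Of all named genes, 141 of 3512 were called higher and 186 lower in DU6 against DUKs. In DU6i against DBA 127 of 3455 were called higher and 256 lower. By its median, each of these 5 lists was higher in DU6 than in DUKs, where Adipoq and Retn were lower. The median was also above 0 in this pair for all named genes (0.10) and for chip A ranks 401 to 800 (0.21).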

How the data were processed

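The deposited values are one linear intensity per probe set and array, which the authors made with Affymetrix software and scaled over all probe sets of an array, per the labels; the submitters' notes name Microarray Suite (version 4.0.1) and Data Mining Tool (version 1.2). Such scaling leaves the spread of bright signals free. Symbols came from the platform annotation. Signals at or under a floor, the 95th percentile of the sizes of a chip's negative signals (1022.8 on chip A, 2258.25 on chip B), were raised to it before log2 was taken. A list gene was read from its brightest probe set. Near probe sets of one member may include the other. The technical SD was taken over genes of both chips and covers differences between probe sets, not between animals or pools. From chip A alone it was lowest in DU6 against DBA (0.31) and highest in DU6 against DUKs (0.46). Sides were compared with limma 3.58.1 in R 4.3.3, chip by chip, over probe sets that passed the floor on 2 or more arrays, with Benjamini-Hochberg adjustment over both chips; the code was tested on simulated data. Named were the members, the 5 genes most like each, genes at 2-fold or more in DU6 against DUKs or DU6i against DBA on the lists of receptors, assembly, resistin family, transcription factors, adipokines and C1q/TNF relatives (not the cell lists), a few set genes such as Lep, Pparg and Fabp4, and bright markers of the cell lists. Erp44, Cpt1a, Adig, Dgat1 and the genes at or beyond Retn were picked after their values were seen. The members and the 14 lists were chosen with earlier results of these data known. Promoters are from RefSeq (GRCm38.p6); both genes matched. The number of arrays limits the precision.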

Additional observations from a re-analysis of the deposited data

Results flagged for a closer look

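Both transcripts moved in opposite directions in DU6 against DUKs and in DU6i against DBA, and the difference was not tested because each line is 1 pool. For Adipoq the log2 ratio was 0.74 in DU6i against DBA and −0.80 in DU6 against DUKs, a difference of 1.54. For Retn the ratios were 0.99 in DU6i against DBA and −1.05 in DU6 against DUKs, a difference of 2.05. Of the 100 probe sets nearest in brightness, 85 near each gene were likewise lower in DU6 than in DUKs and higher in DU6i than in DBA. Their median difference was 1.29 near Adipoq, where 28 reached the Adipoq value, and 1.20 near Retn, where 3 reached the Retn value.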

How the results depend on the processing

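The 12 log2 ratios of the 2 genes kept their direction when the floor was halved or doubled, with log2 of signal plus floor, and with arrays rescaled to one median; the number at 2-fold or more was 3 in the first 3 of these and 4 under median rescaling. Neither gene has a further probe set, so no other could be tried. Quantile normalisation kept the direction of 11 and left 1 at 2-fold or more. Under it the Adipoq ratio was −0.17 in DU6 against DUKs, 0.065 in DU6i against DBA and −0.17 in DU6 against DU6i, and the Retn ratio was 0.39 in DU6i against DBA, −1.05 in DU6 against DU6i and 0.21 in DU6i against DUKs; Adipoq was 0 in DU6i against DUKs. The limma difference between the sides ranged, leaving out each line in turn, between −0.63 and 0.57 for Adipoq and between −0.87 and 0.80 for Retn. It turned positive without DU6 (0.57 for Adipoq, 0.80 for Retn) and without DUKs (0.14 for Adipoq, 0.16 for Retn), each on fewer lines, where the single line left on a side is assumed to vary like the others. Without a filter on low signals limma called 4 probe sets of 13069, neither of them a member. Setting chip A beside chip B, and quantile normalisation before near probe sets were taken, were chosen after seeing the data. Both signals lay far above the floor, and saturation at the bright end of the arrays was not tested.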
